A study of Homo sapiens with 95 samples.

Results

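Ferritin and the genes that import, sense, release and export iron or break down haem were followed across 82 wells of AALE cells, an immortalized line of human bronchial epithelial cells. The set held 10 genes of the 23895 listed, taken by their symbols: FTL and FTH1 (ferritin), TFRC and SLC11A2 (uptake), ACO1 and IREB2 (regulation), NCOA4 (release), SLC40A1 (export), and HMOX1 and BLVRB (haem breakdown). The set was chosen by the measured levels of FTL and FTH1, which had already been seen to differ in these wells, so their values are described with no test. The other 8 genes were tested across the whole table. They and the further genes tested below were also chosen with earlier results of these data known, so their p-values carry that limit. Each well of cells was profiled by 3′DGE (SCRB-seq), a poly-A method that tags the 3′ end of each transcript with a well barcode and a molecular identifier, so that a count stands for a molecule and is not divided by transcript length.

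The cells formed 8 populations. NRF2 (the gene NFE2L2), FGFR1, NRG1 and PIK3CA cells overexpressed the named gene, and HCRED cells, which carried only a vector with the HcRed reporter, were their control. FAT1 and CDKN2A cells were CRISPR knockouts, and GFP cells, which received the Cas9-EGFP plasmid PX458 and no guide RNA, were their control. Every population was exposed to DMSO, the vehicle, or to cigarette smoke condensate (CSC, 24 µg/ml), benzo[a]pyrene (BaP, 173 µM) or the tobacco nitrosamine NNK (490 µM). The wells made 31 groups, of which 25 had 3 wells, 1 had 2 and 5 had 1. CDKN2A cells with CSC had none among these wells. Levels are given in CPM, the counts-per-million scale on which each count is divided by the total of its well.

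Cells keep spare iron inside ferritin, a hollow shell built from light chains (FTL) and heavy chains (FTH1), of which the heavy chain oxidizes the iron as it enters. When iron is scarce, the iron regulatory proteins IRP1 (ACO1) and IRP2 (IREB2) bind hairpins called iron-responsive elements, which blocks translation of the ferritin mRNAs and protects the mRNA of the transferrin receptor (TFRC) from decay. Transcription adds another layer, since NRF2, the master regulator of the antioxidant response, is known to drive both ferritin genes together with HMOX1, BLVRB and SLC40A1.

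The iron-responsive elements are shown because they are the sequence feature that ties FTL, FTH1, SLC40A1 and TFRC to a shared control. A script searched the untranslated regions (UTRs) of the canonical GENCODE transcripts on hg19 (GRCh37) for C, 5 stem bases, CAGTGN and 5 bases that pair with the stem, G-U pairs allowed. The capitals mark the 6-base loop, and 4 further bases are printed on each side. The 5′ UTR of FTL (chr19:49468594-49468618, plus strand), of FTH1 (chr11:61735048-61735072, minus strand) and of SLC40A1 (chr2:190445389-190445413, minus strand) held 1 match each, and the 3′ UTR of TFRC held 4, all on the minus strand (chr3:195777852-195777876, chr3:195777448-195777472, chr3:195777383-195777407 and chr3:195777336-195777360, in transcript order).
FTL: cttgcttcaaCAGTGTttggacgga
FTH1: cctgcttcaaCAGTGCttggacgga
SLC40A1: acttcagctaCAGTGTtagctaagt
TFRC 1: ttatcggaagCAGTGCcttccataa
TFRC 2: ttatcgggagCAGTGTcttccataa
TFRC 3: gtatcggagaCAGTGAtctccatat
TFRC 4: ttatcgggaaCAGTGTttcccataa
Of all protein-coding genes, 0.0963% of the 18700 5′ UTRs searched and 0.631% of the 19349 3′ UTRs searched held such a match. The other members, SLC11A2 among them, held no match. Only the canonical transcript of each gene and only this pattern were searched, so elements in other transcripts or of another shape would be missed. A match is a run of letters and not a measured binding site. The counts measure mRNA, so control of translation through these elements is not seen in them.

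Well totals ranged from 692446 to 1895735 counts with a median of 1293615. Each chemical filled its own pair of plate rows, so chemical and row cannot be told apart, and the barcodes of the rows differed as well, with on average 1 G or C base for DMSO, 1.24 for CSC, 4.74 for BaP and 5 for NNK. The targeted gene lay on the labelled side of the control in all 6 modified populations under DMSO, with no overlap of wells: NFE2L2, for instance, was at 139 to 163 CPM in NRF2 cells and 36.8 to 51.9 CPM in HCRED cells. CDKN2A mRNA was lower but still present in CDKN2A cells, at 19 to 23.8 CPM against 34.9 to 38.6 CPM in GFP cells. PIK3CA mRNA was at 5.96 to 16.8 CPM in PIK3CA cells against 0.774 to 4.28 CPM in HCRED cells. All 8 epithelial markers were detected, with a summed level of 449.6 to 1106.3 CPM, whereas 5 macrophage markers summed to at most 6.63 CPM (CD163 at 0 in every well) and 4 fibroblast markers to at most 15.8 CPM. For 3 wells the level of FTH1 was far from that of the other wells of the group, namely FGFR1 DMSO replicate 3, CDKN2A DMSO replicate 2 and NRG1 NNK replicate 2. The main ferritin and TFRC values that rest on them are given both ways.

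FTL (chr19:49468566-49470136, plus strand) was one of the most abundant transcripts of these cells. Its level ranged from 3543 to 25032 CPM with a median of 8277, which is 0.354% to 2.50% of all counts in a well, and its rank among all genes ranged from 2 to 58 with a median of 12. FTH1 (chr11:61727190-61735106, minus strand) ranged from 210.9 to 1203 CPM with a median of 536, at ranks from 148 to 601. FTL had at least 4244 counts and FTH1 at least 273 in every well. Both genes have many processed copies in the genome (16 named FTLP and 25 named FTH1P or FTHP in GENCODE), and reads from such copies could be counted with the parent gene or lost. Among the ferritin copy symbols in the count files, FTLP10 had 67 counts over the 82 wells, FTH1P3 had 7 and FTH1P18 had 0. Only 1 of the 25 GENCODE names of FTH1 copies was listed there. The absolute levels, and with them the ratio of the chains, are uncertain to that extent.

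Under DMSO, FTL separated the populations into 3 tiers. CDKN2A cells held 12302, 11580.0 and 12320.1 CPM, the upper tier on its own. FGFR1 cells (8099, 8284 and 7142 CPM), PIK3CA cells (7214, 7284 and 7423 CPM) and NRF2 cells (7199, 7076 and 6959 CPM) formed the middle tier, in which FGFR1 wells overlapped with both others and NRF2 wells lay just below PIK3CA wells. HCRED cells (4544, 4383 and 4561 CPM), FAT1 cells (4675, 4284 and 4511 CPM) and NRG1 cells (4532, 4386 and 4520.0 CPM) could not be ordered, because their wells overlapped. GFP cells were lowest, at 3920.2, 3543 and 3943 CPM. Each well is a bulk sample, in which fewer cells of a type and less RNA per cell cannot be told apart.

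**Figure D1:**
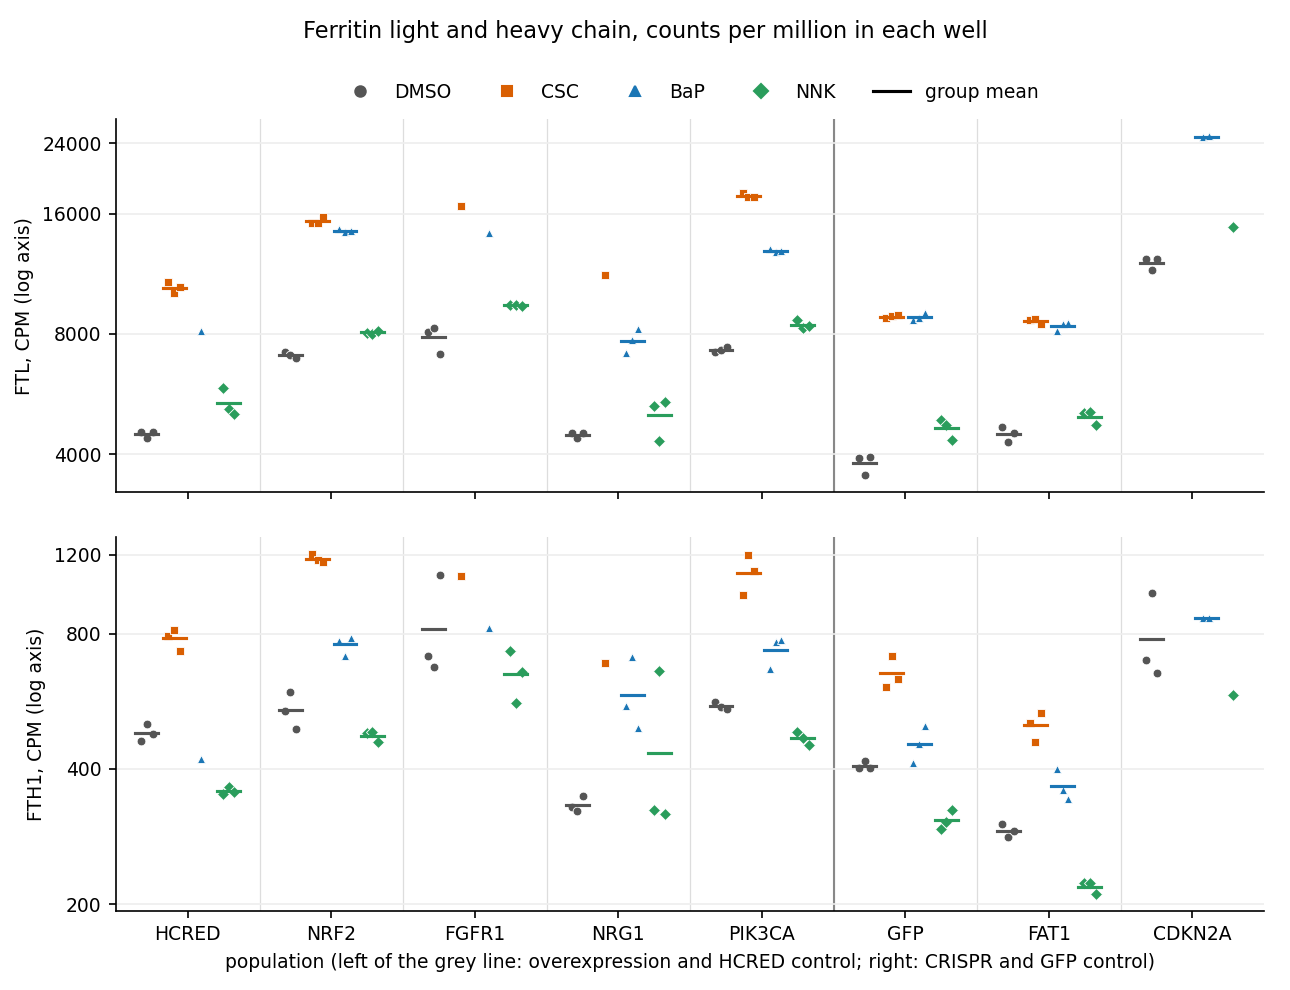
Level in CPM of FTL (upper panel) and FTH1 (lower panel) in each of the 82 wells on log axes, by population and chemical, with a short line at the mean of each group of 2 or more wells. FTL under CSC and BaP lies above DMSO in every population drawn with 3 wells of each, from 3543 CPM in a GFP DMSO well up to 25032 CPM in a CDKN2A BaP well, and FTH1 under NNK lies below DMSO in 5 of 7 such populations.

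FTH1 ordered the populations differently at the lower end. FAT1 cells were lowest, at 301.6, 281.5 and 290.9 CPM, followed without overlap by NRG1 cells (328.4, 322.3 and 348.5 CPM) and GFP cells (401.2, 417 and 401 CPM). HCRED (462.1, 503 and 479.4 CPM), NRF2 (538.3, 594.6 and 492 CPM) and PIK3CA wells (563.8, 548.4 and 543.3 CPM) lay next to each other, with overlap of NRF2 wells with both neighbours. CDKN2A (697.9, 985 and 655.6 CPM) and FGFR1 wells (712.1, 673.9 and 1078 CPM) were highest and overlapped, and each of these groups held 1 well far above its other wells.

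Set against the control of each population in limma-voom fits, FTL was higher in CDKN2A than in GFP cells by a log2 fold change of 1.56 (SE 0.07, 3 wells against 3). It was higher than in HCRED cells by 0.79 (SE 0.07) in FGFR1 cells, 0.76 (SE 0.03) in PIK3CA cells and 0.75 (SE 0.02) in NRF2 cells. FTL in NRF2 cells was thus below that in CDKN2A cells and close to that in FGFR1 and PIK3CA cells. FAT1 cells exceeded GFP cells by 0.29 (SE 0.03). NRG1 and HCRED cells overlapped, with a log2 fold change of 0.07 (SE 0.02) that turned to -0.003 when library totals replaced TMM scaling. The controls were not equal, since all GFP wells lay below all HCRED wells in FTL (log2 fold change -0.19, SE 0.03) and FTH1 (-0.20, SE 0.06), so levels of knockout and overexpressing cells share no baseline.

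FTH1 did not follow FTL in every population. CDKN2A and FGFR1 cells had more of both chains, FTH1 by 0.81 (SE 0.11) and 0.72 (SE 0.10) on the log2 scale, although the latter was 0.56 without FGFR1 replicate 3, where FTL was 0.91. Without CDKN2A replicate 2 the CDKN2A values were 0.72 for FTH1 and 1.68 for FTL. NRF2 and PIK3CA cells, with FTL higher by about the amount seen in FGFR1 cells, had FTH1 higher by only 0.26 (SE 0.06 in each). In FAT1 and NRG1 cells FTH1 was lower than in the control (log2 fold change -0.43, SE 0.08, and -0.46, SE 0.06), with no overlap of wells. The comparisons with HCRED share those control wells, as do the comparisons with GFP.

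CSC went with higher levels of both chains. Over the 5 populations with 3 wells of both, FTL was 2.24-fold higher than under DMSO (log2 fold change 1.16, SE 0.02), with no overlap between CSC and DMSO wells in any of these populations. HCRED cells with CSC held 10757, 10139 and 10453 CPM, and PIK3CA cells 18035, 17549 and 17638 CPM. NRF2 cells with CSC held 15190, 15138 and 15649 CPM. Fitted within populations, the log2 fold change was 1.32 (SE 0.03) in PIK3CA, 1.24 (SE 0.04) in HCRED, 1.19 (SE 0.04) in GFP, 1.08 (SE 0.03) in NRF2 and 0.93 (SE 0.03) in FAT1 cells.

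FTH1 was 1.84-fold higher under CSC (log2 fold change 0.88, SE 0.04), again with no overlap of wells in any of the 5 populations. Its order of responses was not that of FTL: the log2 fold change was 1.08 (SE 0.06) in NRF2, 1.02 (SE 0.06) in PIK3CA, 0.77 (SE 0.08) in FAT1, 0.73 (SE 0.07) in HCRED and 0.66 (SE 0.08) in GFP cells. NRF2 wells with CSC held 1203, 1170 and 1157 CPM of FTH1, of which the first is the highest FTH1 level among the 82 wells.

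Under BaP the pooled log2 fold change was smaller than under CSC for both chains, and more so for the heavy chain. The BaP fit held NRG1 cells in place of the HCRED cells of the CSC fit. Within FAT1, GFP and NRF2 cells the FTL value was close to that under CSC. In PIK3CA cells it was 0.86 (SE 0.03) with BaP next to 1.32 (SE 0.03) with CSC. The FTH1 value was smaller with BaP in each of these populations. FTL was 1.96-fold higher than DMSO over 5 populations (log2 fold change 0.97, SE 0.02), with BaP wells above DMSO wells in each. GFP cells held 3543 to 3943 CPM under DMSO and 8645, 8761 and 9003 CPM under BaP, a log2 fold change of 1.27 (SE 0.04) that was the largest of the 5, and NRG1 cells, at 7154, 7711 and 8239 CPM, had the smallest at 0.77 (SE 0.04). FTH1 had a log2 fold change of 0.48 (SE 0.04) and its wells lay above DMSO in 4 of 5 populations, with overlap in GFP cells (411.4, 454.1 and 497.9 CPM). NRG1 cells, lowest in FTL response, were highest in FTH1 response, at 0.80 (SE 0.08). CDKN2A cells had only 2 BaP wells and did not enter the main BaP fit. These wells held 24815 and 25032 CPM of FTL and 865.5 and 866.6 CPM of FTH1.

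NNK separated the chains in direction. Over 7 populations the log2 fold change was 0.26 (SE 0.05) for FTL and -0.19 (SE 0.05) for FTH1. FTL wells lay above DMSO in 6 of 7 populations, for example at 9431, 9464 and 9391 CPM in FGFR1 cells. FTH1 wells lay below DMSO in 5 of 7 populations, for example at 222.7, 222.7 and 210.9 CPM in FAT1 cells, the lowest group of all. The exceptions were FGFR1 cells for FTH1 and NRG1 cells for both. In NRG1 cells with NNK, replicate 2 had 4329.8 CPM of FTL and 661.1 CPM of FTH1, whereas replicates 1 and 3 had 5296 and 5419 CPM of FTL and 324.7 and 317.3 CPM of FTH1. That well also listed 13215 genes with a count, compared with 12006 and 11604 for replicates 1 and 3, and without it the values over 7 populations were 0.31 for FTL and -0.21 for FTH1. Without FGFR1 DMSO replicate 3 they were 0.24 and -0.16.

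The ratio of FTL to FTH1 within a well does not depend on library size or scaling. A well held between 6.55 and 28.9 FTL counts per FTH1 count, with a median of 15.5. Averaged over populations, log2 of the ratio was higher than under DMSO by 0.30 with CSC (SD of populations 0.23, n = 5), 0.51 with BaP (SD 0.38, n = 5) and 0.46 with NNK (SD 0.29, n = 7), and the SD between wells of a group was 0.23. Wells lay wholly above DMSO in 4 of 5, 4 of 5 and 6 of 7 populations. The NNK value was 0.52 without NRG1 NNK replicate 2 and 0.42 without FGFR1 DMSO replicate 3. The sets of populations differed between the chemicals. In FAT1, GFP, NRF2 and PIK3CA cells, covered under all 3, the shift was 0.16, 0.54, -0.01 and 0.30 with CSC. It was 0.57, 1.055, 0.55 and 0.41 with BaP, and 0.56, 0.69, 0.38 and 0.44 with NNK. No test was made of the ratio.

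The ratio also varied between populations. Under DMSO its log2 value was lowest in HCRED (3.30, 3.12 and 3.25) and GFP cells (3.29, 3.09 and 3.30), the control populations, except for FGFR1 replicate 3 at 2.73. Log2 ratios of 3.95, 3.93 and 3.96 were found in FAT1 cells. NRG1 cells (3.79, 3.77 and 3.70), PIK3CA cells (3.68, 3.73 and 3.77) and NRF2 cells (3.74, 3.57 and 3.82) lay between the controls and FAT1 cells. So did FGFR1 replicates 1 and 2, at 3.51 and 3.62. CDKN2A replicates 1 and 3 lay above the FAT1 wells, at 4.14 and 4.23, whereas replicate 2, with outlying FTH1, was at 3.555. BaP wells of CDKN2A cells, at 4.84 and 4.85, had the highest ratios of the 82 wells. NRF2 cells with CSC were the only CSC group with no shift (-0.01 from DMSO). In NRG1 cells the mean shift was -0.02 with BaP and -0.14 with NNK. The NRG1 wells with BaP were spread, at 3.70, 3.44 and 4.06, with replicate 2 below and replicate 3 above all 3 DMSO wells. For NNK the NRG1 value rests on replicate 2, at 2.71, while replicates 1 and 3 were at 4.03 and 4.09, above all 3 DMSO wells.

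**Figure D2:**
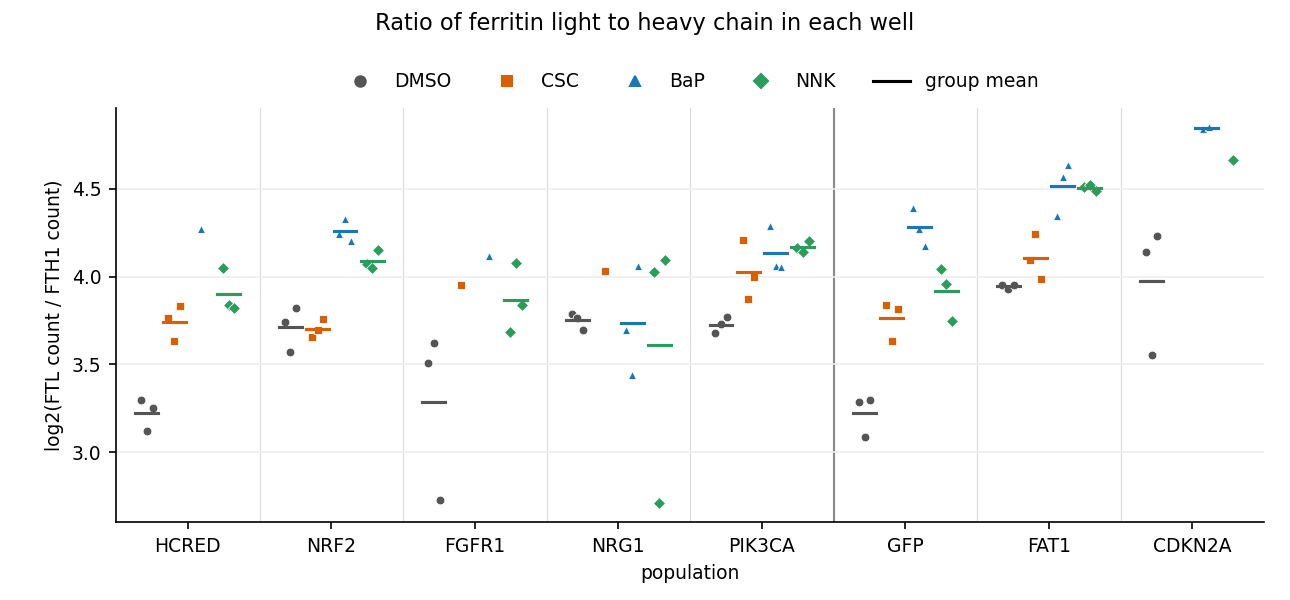
Log2 of the FTL count over the FTH1 count in each well, by population and chemical, with a short line at the mean of each group of 2 or more wells. HCRED and GFP wells under DMSO sit between 3.09 and 3.30, the 2 CDKN2A BaP wells at 4.84 and 4.85, and the outlying wells FGFR1 DMSO replicate 3 and NRG1 NNK replicate 2 at 2.73 and 2.71.

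Of the other 8 members, 6 passed the filter on low counts (mean count above 1) in each chemical comparison. At an adjusted p under 0.05 (limma-voom, Benjamini-Hochberg over all genes tested), 1 of 6 passed under CSC, where 5.81% of all 11371 genes tested did, 1 of 6 under BaP (9.16% of 11306) and 0 of 6 under NNK (7.22% of 11349). Without NRG1 NNK replicate 2 the share of all genes under NNK was 19.9%. edgeR and DESeq2 also called 1, 1 and 0, and 0 of the 6 had an unadjusted p under 0.05 with NNK. The CSC member was TFRC and the BaP member was BLVRB.

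**Figure D3:**
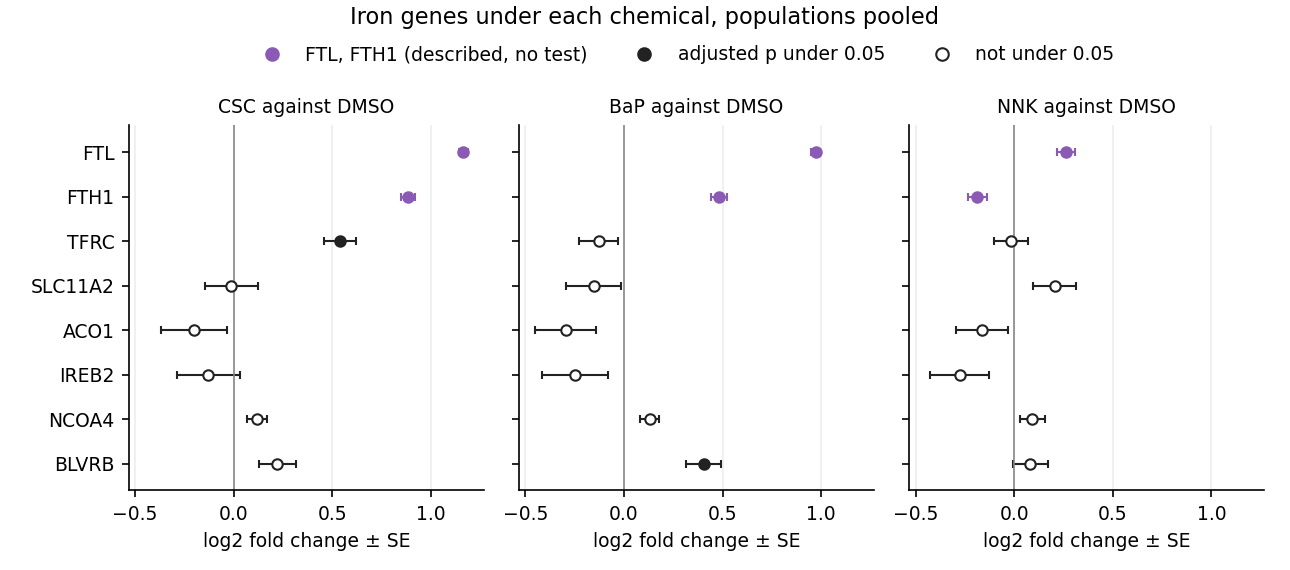
Log2 fold change with its SE for 8 iron genes under CSC, BaP and NNK against DMSO, populations pooled in the fit (5, 5 and 7 populations, in sets that differ). FTL and FTH1 are described without a test, filled black points passed an adjusted p of 0.05 and open points did not: TFRC passed under CSC at 0.54 and BLVRB under BaP at 0.41.

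TFRC (chr3:195739382-195809024, minus strand), the receptor that takes up transferrin-bound iron, ranged from 6.18 to 98.4 CPM (8 to 166 counts in a well) and had wide differences between populations. CDKN2A cells under DMSO held 92.6, 73.45 and 90.29 CPM, well above GFP cells at 20.14, 19.11 and 26.39 CPM. The log2 fold change was 1.84 (SE 0.21, limma adjusted p = 4.27e-12), and 2.02 without CDKN2A replicate 2. NRF2 wells (44.86, 50.35 and 39.42 CPM) and PIK3CA wells (39.09, 55.71 and 42.55 CPM) lay above HCRED wells (23.1, 31.62 and 30.2 CPM). TFRC rose by 0.75 (SE 0.18, limma adjusted p = 0.00319) in NRF2 cells and by 0.73 (SE 0.18, limma adjusted p = 0.00504) in PIK3CA cells. The PIK3CA call was lost without HCRED replicate 1 (log2 fold change 0.61, limma adjusted p = 0.0594) or without PIK3CA replicate 2 (0.58, limma adjusted p = 0.0753).

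FGFR1 wells were also all above HCRED wells for TFRC, at 42.25, 48.19 and 40.59 CPM, with a log2 fold change of 0.61 (SE 0.20) that did not pass (limma adjusted p = 0.156). Without FGFR1 replicate 3, in which FTH1 was outlying, it was 0.71 and passed (limma adjusted p = 0.0152). NRG1 wells lay below HCRED wells, at 21.98, 16.86 and 17.67 CPM, and the log2 fold change of -0.52 (SE 0.21) did not pass (limma adjusted p = 0.208). FAT1 and GFP wells overlapped.

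Under CSC, TFRC rose by a log2 fold change of 0.54 over 5 populations (SE 0.08, limma adjusted p = 7.89e-07). PIK3CA wells reached 75.04, 76.25 and 75.55 CPM and NRF2 wells 73.18, 74.55 and 61.53 CPM, each above all DMSO wells of the population. HCRED wells reached 37.22, 45.88 and 40.27 CPM, also with no overlap. In GFP (26.93, 28.42 and 21.26 CPM) and FAT1 cells (22.25, 25.75 and 16.88 CPM) the CSC and DMSO wells overlapped. The response itself was not shown to differ between populations (moderated F test, limma adjusted p = 0.869).

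TFRC did not pass under BaP or NNK, where FTL was higher. The log2 fold change was -0.13 under BaP (SE 0.10, limma adjusted p = 0.499) and -0.02 under NNK (SE 0.09, limma adjusted p = 0.945), and the NNK value turned positive in 4 alternative fits and without any 1 of 9 wells. FAT1 cells had TFRC wells below DMSO under both, at 13.35, 6.18 and 13.57 CPM with BaP and 8.99, 13.69 and 9.99 CPM with NNK, against 17.78, 17.56 and 23.15 CPM with DMSO. FGFR1 wells with NNK (37.53, 27.45 and 24.55 CPM) were likewise below their DMSO wells. These per-population differences did not pass the test across all genes (limma adjusted p = 0.173, 0.289 and 0.521).

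**Figure D4:**
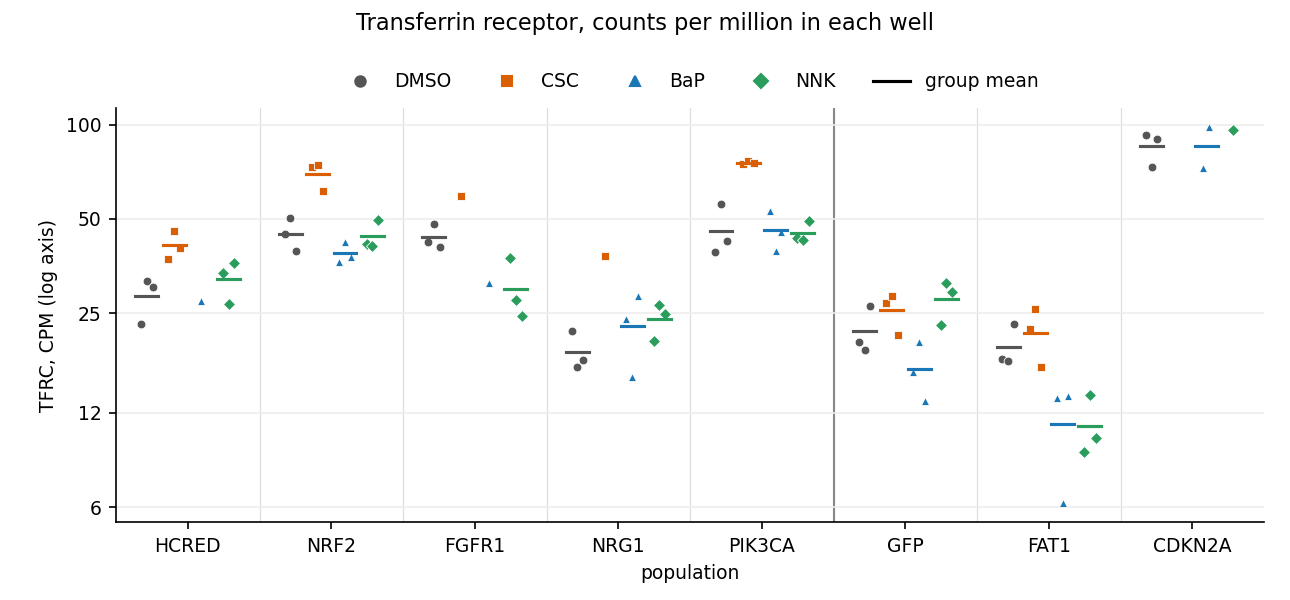
Level in CPM of TFRC in each well on a log axis, by population and chemical, with a short line at the mean of each group of 2 or more wells. CDKN2A wells sit highest under DMSO, BaP and NNK, from 72.6 to 98.4 CPM, PIK3CA and NRF2 wells with CSC lie above their DMSO wells, and FAT1 wells with BaP or NNK lie below theirs.

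SLC11A2 (DMT1, which moves iron out of the endosome), ACO1 and IREB2 were low but detected in every well, with medians of 13.4, 7.77 and 8.87 CPM, or 17, 9 and 11 counts. None of them passed in any chemical or population comparison. Their log2 fold changes in these comparisons lay between -0.56 and 0.49 for SLC11A2, -0.50 and 0.57 for ACO1, and -0.28 and 0.54 for IREB2. The wells with outlying FTH1 were also high in IREB2 under DMSO. FGFR1 replicate 3 was at 28.99 CPM, next to 7.62 and 9.78 CPM in replicates 1 and 2. CDKN2A replicate 2 was at 20.88 CPM, next to 9.48 and 8.90 CPM in replicates 1 and 3. IREB2 values without these wells are not given. Within single populations IREB2 wells lay wholly below DMSO wells in FAT1 cells with BaP (log2 fold change -0.85, SE 0.39, limma adjusted p = 0.361) and in FAT1 (-1.11, SE 0.40, limma adjusted p = 0.258) and NRF2 cells with NNK (-0.47, SE 0.36, limma adjusted p = 0.797). In PIK3CA cells with NNK the value was -0.98 (SE 0.48, limma adjusted p = 0.647), with overlap. None of these passed. IREB2 wells thus lay wholly below DMSO in 0 of 5 populations with CSC, 1 of 5 with BaP and 2 of 7 with NNK. For ACO1 this was 1 of 5 with CSC, 1 of 5 with BaP and 0 of 7 with NNK. GFP cells were the population both times (log2 fold change -0.53, SE 0.38, limma adjusted p = 0.77, and -0.47, SE 0.34, limma adjusted p = 0.686), and neither passed. How often the wells of all genes separate in this way was not counted. The genes lie at chr12:51373184-51422349 (minus strand), chr9:32384601-32454767 (plus strand) and chr15:78729773-78793795 (plus strand).

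NCOA4 (chr10:51565199-51590734, plus strand), the receptor that carries ferritin to the lysosome for degradation, had a narrow range, from 75.9 to 166.7 CPM. CDKN2A cells under DMSO held 102.1, 88.57 and 88.38 CPM and GFP cells 116.7, 104.7 and 148.8 CPM, with no overlap. NCOA4 thus fell by 0.51 on the log2 scale (SE 0.15, limma adjusted p = 0.00758), in the cells in which FTL and TFRC were highest, but the call was lost without GFP replicate 3 (-0.36, limma adjusted p = 0.182). Under BaP it was 0.13 (SE 0.05, limma adjusted p = 0.0762), which passed with the filter at a mean count above 10, with the wells of 2-digit replicate numbers added, or without DMSO replicate 3 of GFP or of NRG1 cells. Under NNK it was 0.09 (SE 0.06, limma adjusted p = 0.434), and 0.15 without NRG1 NNK replicate 2, where it passed (limma adjusted p = 0.0154).

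BLVRB (chr19:40953672-40971671, minus strand), which reduces biliverdin and flavins, ranged from 19.7 to 52.6 CPM. It rose under BaP by a log2 fold change of 0.41 (SE 0.09, limma adjusted p = 0.000748), and the 5 per-population values were all positive, between 0.32 and 0.50, although BaP wells lay wholly above DMSO wells in only 2 of 5 populations. Under CSC the value was 0.22 (SE 0.10, limma adjusted p = 0.198). BLVRB did not pass in NRF2 cells against HCRED cells (-0.08, limma adjusted p = 0.9).

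HMOX1 (chr22:35776354-35790207, plus strand), the inducible haem oxygenase, was close to undetected under every condition. It was at 0 in 44 of the 82 wells and never exceeded 3 counts. Under DMSO its highest mean was in CDKN2A cells, at 1.67, 1.44 and 0.636 CPM (3, 2 and 1 counts). GFP wells held 0, 0.831 and 0 CPM, and the difference did not pass by limma. Over all wells of a chemical the pooled level was 0.496 CPM for DMSO (17 counts in 24 wells), 0.593 CPM for CSC (13 counts in 17 wells), 0.564 CPM for BaP (13 counts in 19 wells) and 0.424 CPM for NNK (11 counts in 22 wells). A count of 0 allows a level of up to 1.58 CPM in the deepest well and 4.33 CPM in the shallowest, by counting error alone, so a change at the level of HMOX1 was not detectable in single wells. SLC40A1 (ferroportin, the iron exporter, chr2:190425316-190448484, minus strand) was as low, with 83 counts in all and 36 wells at 0. Its highest level, 7.20 CPM or 10 counts, was in CDKN2A DMSO replicate 2, the well with outlying FTH1, next to 0.558 and 1.27 CPM in replicates 1 and 3 and 0, 0 and 0.733 CPM in GFP wells. The CDKN2A value did not pass by limma (log2 fold change 1.74, SE 0.91, adjusted p = 0.187) and did by edgeR (adjusted p = 0.0438). Both results include replicate 2, which held 10 of the 13 SLC40A1 counts of these CDKN2A wells, and no value without it is given.

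Across populations, the 8 members other than ferritin gave few calls. Under DMSO 1 of 6 tested passed in NRF2 cells (4.91% of all genes), 0 of 7 in FGFR1 (0.914%), 0 of 7 in NRG1 (3.08%), 1 of 6 in PIK3CA (5.40%), 0 of 6 in FAT1 (14.1%) and 2 of 8 in CDKN2A cells (17.9%), and 0 of 6 between GFP and HCRED cells (10.8%). For the comparisons with 0, 2 members in FGFR1, 2 in NRG1, 0 in FAT1 and 0 between the controls had an unadjusted limma p under 0.05, and edgeR and DESeq2 called 0 as well, DESeq2 with no adjusted p for 4 members in FGFR1, 6 in NRG1 and 2 between the controls. DESeq2 called 0 in NRF2 cells too, where it gave no adjusted p for 5 members, TFRC among them. Without FGFR1 DMSO replicate 3 the share of all genes in FGFR1 cells was 2.92%, and 1 member, TFRC, passed. In the moderated F test of whether a chemical's response differs between populations, 0 of the 6 members tested passed for CSC (0.106% of all genes), BaP (0.106%) or NNK (0.0176%), with unadjusted p under 0.05 for 0, 1 and 1 of them, and edgeR called 0.

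**Figure D5:**
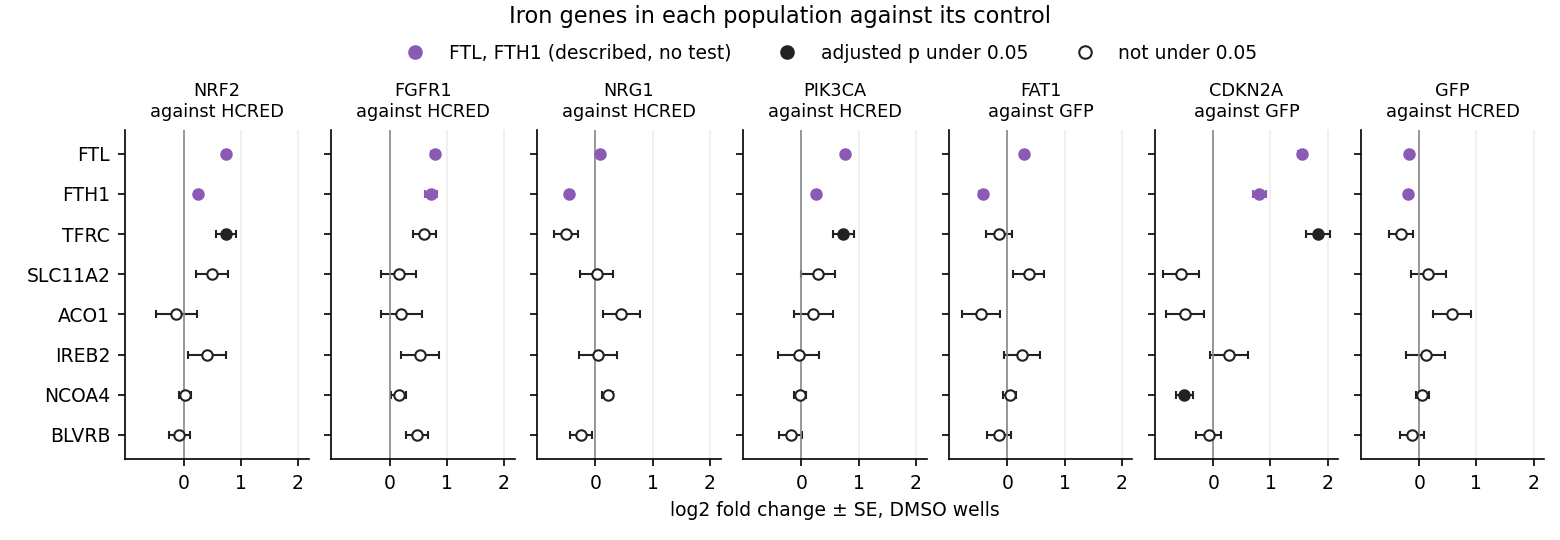
Log2 fold change with its SE for 8 iron genes in each population against its control under DMSO, 3 wells against 3. TFRC passed an adjusted p of 0.05 in NRF2 (0.75), PIK3CA (0.73) and CDKN2A cells (1.84), NCOA4 in CDKN2A cells (-0.51), and FTH1 lies left of 0 in NRG1, FAT1 and GFP cells.

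A further 58 genes of iron and haem metabolism gave 47 to 49 testable genes per comparison. Under CSC 2 of 47 passed (4.26%, next to 5.81% of all genes): FBXL5, the iron-sensing subunit of the ubiquitin ligase that degrades IRP2, rose by 0.43 (SE 0.11, limma adjusted p = 0.0049), and PCBP2, a chaperone that hands iron to ferritin, fell by 0.18 (SE 0.05, limma adjusted p = 0.00769). Under BaP 5 of 47 passed (10.6%, next to 9.16% of all genes), all higher. They were FBXL5 at 0.79 (SE 0.10) and 3 enzymes of haem synthesis, ALAS1 at 0.81 (SE 0.07), ALAD at 0.63 (SE 0.20) and UROD at 0.22 (SE 0.05), with HMOX2, the constitutive haem oxygenase, at 0.47 (SE 0.11). ALAS1 carries out the rate-limiting step of haem synthesis and had the smallest limma adjusted p of the list, 1.13e-15. The ALAD call (limma adjusted p = 0.0301) was lost by edgeR (0.0556), in a joint fit over all groups (0.117), with the wells of 2-digit replicate numbers added (0.0559) and without any 1 of 4 DMSO wells, FAT1 replicate 2, NRF2 replicate 2, NRG1 replicate 3 or PIK3CA replicate 3.

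NNK gave 5 of 47 (10.6%, next to 7.22% of all genes). FBXL5 (0.32, SE 0.10), HMOX2 (0.34, SE 0.09) and BLVRA (0.18, SE 0.06), the main biliverdin reductase, were higher, and the zinc and iron importer SLC39A14 (-0.47, SE 0.11) and MMS19 (-0.54, SE 0.16), which targets iron-sulfur clusters to DNA enzymes, were lower. Their limma adjusted p-values lay between 0.0016 for SLC39A14 and 0.0466 for BLVRA. Members and further genes together gave 5 with NRG1 NNK replicate 2 and 14 without it, as the share of all genes past the threshold went from 7.22% to 19.9%. The 3 chemical comparisons share DMSO wells. The median log2 fold change of the 47 genes was 0.00 under CSC, 0.05 under BaP and 0.02 under NNK, next to -0.00, 0.01 and -0.01 for all genes tested.

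In the populations, 10 of 47 of these genes passed in FAT1 cells (21.3%, next to 14.1% of all genes), among them EPAS1 (HIF-2α) at 1.16 (SE 0.33) and HMOX2 at 0.98 (SE 0.29), both higher, and the iron-sulfur assembly factor ISCA1 at -0.92 (SE 0.25) and FBXL5 at -0.79 (SE 0.25), both lower. In CDKN2A cells 9 of 48 passed (18.8%, next to 17.9%), with HMOX2 at 1.30 (SE 0.29) and BLVRA at 0.79 (SE 0.15) the highest and PCBP2 at -1.01 (SE 0.13) and LYRM4 at -0.68 (SE 0.17) the lowest. Between the controls 6 of 47 passed (12.8%, next to 10.8%), including FBXL5 at 0.79 (SE 0.24), ISCA1 at 0.73 (SE 0.24), HMOX2 at -1.28 (SE 0.28) and EPAS1 at -1.05 (SE 0.33). This comparison and those of both knockouts share the GFP wells. NRF2 cells had 1 call, STEAP1 at -1.28 (SE 0.40), and NRG1 cells 1, BOLA3 at 0.32 (SE 0.10), and each call was lost without any 1 of 5 of the 6 wells. FGFR1 and PIK3CA cells had 0 by limma, edgeR and DESeq2, with 3 and 7 genes at an unadjusted limma p under 0.05 and no DESeq2 adjusted p for 32 and 34.

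As a description, log2 CPM of FTL over the 31 group means followed most closely that of SQSTM1 (p62, an autophagy receptor; Pearson r = 0.83), FTH1 (0.83), NIT2 (0.80), LGALS8 (0.79) and GLA (0.79), among 3354 genes with a mean of at least 20 CPM. For FTH1 the nearest were FTL (0.83), TXNRD1 (thioredoxin reductase, 0.77), PDLIM5 (0.76), TFRC (0.74) and SQSTM1 (0.74). TFRC sat with a different group, SSR3 (0.87), PPP2R1B (0.87), UBE4A (0.86), CBX3 (0.85) and SPCS3 (0.85), and had r = 0.69 with FTL and -0.69 with NCOA4. Groups of 1 chemical share plate rows and populations share columns, so these points are not independent.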

How the data were processed

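The authors deposited 1 table of raw counts per well, with gene symbols and counts of distinct molecular identifiers from 3′DGE reads aligned with BWA 0.7.10 against hg19, per the submitters' processing notes. No normalization was applied to the deposited counts. Of 95 wells, the 82 with a 1-digit replicate number are described, and their groups of 3 wells entered the tests. The 13 wells with 2-digit numbers, in 6 groups, may be repeats of a sample and entered only as an alternative.

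Counts were divided by well totals for CPM. Comparisons used limma 3.58.1 voom with TMM factors (edgeR 4.0.16, R 4.3.3), genes with a mean count above 1 in the wells fitted, Benjamini-Hochberg adjustment over all genes tested and two-sided tests. Chemicals were compared with DMSO in populations with 3 wells of both, with population as covariate, and populations with their control under DMSO. A moderated F test compared responses between populations. The study calls its replicates biological, whereas the labels do not say that wells came from separate cultures. The p-values measure the spread between wells. Further genes are named by size: up to 4 higher and 4 lower per chemical, up to 2 each way per population, and the 5 nearest by correlation. UROD under BaP was added after its value was seen. Alternatives were other scalings and filters, edgeR and DESeq2 1.42.0, a replicate block, a joint fit and leaving out each well. Members and gene lists were chosen with earlier results of these data known. The limma fits were also run on simulated counts, which held no plate-row effect and no outlying wells. The result of 1 further marker list is not reported here.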

Additional observations from a re-analysis of the deposited data

Results flagged for a closer look

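The wells with 2-digit replicate numbers entered the comparisons only as an alternative and are given because they held signals outside the main values. Each group was set against the 3 DMSO wells of its population, as log2 of the ratio of mean CPM, with no test. FTL in every 2-digit well lay above all of those DMSO wells, by 1.08 in CDKN2A cells, 1.14 in FGFR1 cells and 1.23 in NRG1 cells with CSC, by 0.90 in FGFR1 cells and 0.93 in HCRED cells with BaP, and by 0.36 in CDKN2A cells with NNK. For FTH1 the 2-digit wells were above the DMSO wells with CSC, by 0.62 in CDKN2A, 0.53 in FGFR1 and 1.04 in NRG1 cells, and with BaP by 0.15 in HCRED cells. They overlapped in FGFR1 cells with BaP (-0.06) and lay wholly below in CDKN2A cells with NNK (-0.62). TFRC was above them with CSC, by 0.59 in CDKN2A, 0.47 in FGFR1 and 0.91 in NRG1 cells, wholly below in HCRED cells with BaP (-0.61), and overlapped in FGFR1 cells with BaP (-0.27) and CDKN2A cells with NNK (0.04). Log2 of the FTL to FTH1 ratio was above the DMSO wells in all 6 groups, by 0.19 in NRG1 cells with CSC to 0.96 in CDKN2A cells with NNK, whose wells reached 5.03.

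CDKN2A cells with CSC were seen only in these wells, at 25196 to 25786 CPM of FTL, which is above the highest level among the 82 wells with 1-digit numbers. These wells share the plate rows of their chemical. Whether 2-digit wells with the same first digit are 1 sample was not tested.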

How the results depend on the processing

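TFRC under CSC and BLVRB under BaP kept their calls in every alternative. The number of iron genes past the threshold (FTL and FTH1 left out) was less stable. The share of all genes tested that passed moved as well and is given in brackets. The count was 3 under CSC (5.81%), and 5 with median-ratio size factors (5.87%), 7 with a mean count above 10 (12.3%) and 6 by edgeR (6.3%). A joint fit gave 5 (5.26%) and the 2-digit wells 8 (9.88%). Under BaP it was 6 (9.16%) and 11 with the 2-digit wells (16.9%). Under NNK it was 5 (7.22%), 9 without a filter (12.7%) and 8 with the 2-digit wells (12.1%). The fits with the 2-digit wells also took in populations absent from the main fits. These were FGFR1, NRG1 and CDKN2A cells for CSC, HCRED, FGFR1 and CDKN2A cells for BaP, and CDKN2A cells for NNK. Wells that may be repeats of a sample entered as separate samples, so these counts are not of the same comparison. In NRF2 cells the count was 2 (4.91%), then 1 without a filter (3.74%), with a mean count above 10 (10.3%) or in a joint fit (1.8%). DESeq2 gave 0 there (3.13%), with no adjusted p for TFRC or STEAP1. In NRG1 cells it was 1 (3.08%), and 0 with library totals (2.68%), without a filter (2.42%), by DESeq2 (1.92%) or in a joint fit (0.643%). DESeq2 gave 5 (7.68%) in place of 10 (14.1%) in FAT1 cells and 3 (5.92%) in place of 6 (10.8%) between GFP and HCRED cells. Of the further iron and haem genes, DESeq2 gave no adjusted p for 22 in FAT1 cells, 24 between the controls and 41 in NRG1 cells. Its shares still count such genes as tested. Leaving out 1 well gave 3 to 5 under CSC (5.49% to 6.26%), 5 to 7 under BaP (8.26% to 9.85%) and 3 to 14 under NNK (6.05% to 19.9%). Under DMSO it gave 1 to 2 in NRF2 (3.74% to 4.64%), 0 to 1 in FGFR1 (0.443% to 2.92%) and 0 to 1 in NRG1 cells (1.8% to 2.93%). It gave 0 to 3 in PIK3CA (3.94% to 4.77%), 5 to 9 in FAT1 (10.6% to 11.8%) and 6 to 13 in CDKN2A cells (12.2% to 19.3%). Between the controls it gave 2 to 5 (8.22% to 9.16%). Causes of these shifts were not tested.

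TFRC under NNK, at -0.02, was 0.007 with median-ratio size factors, 0.002 by DESeq2, 0.033 in a joint fit and 0.048 with the 2-digit wells, and -0.032 to 0.020 without 1 well. FTL in NRG1 cells was -0.003 with library totals, and TFRC in FAT1 cells lay between -0.242 and 0.025 without 1 well. The shift of the FTL to FTH1 ratio was 0.28 to 0.32 under CSC, 0.48 to 0.54 under BaP and 0.42 to 0.52 under NNK. Replicate numbers did not pair the wells (mean correlation of same-numbered wells -0.06 to 0.06). With a replicate block the counts of iron genes were 3 under CSC (5.97% of all genes), 6 under BaP (9.07%) and 5 under NNK (7.03%). They were 11 in FAT1 (14.5%) and 12 in CDKN2A cells (19.5%), with no other count changed. Depth limits SLC11A2, ACO1, IREB2, HMOX1 and SLC40A1.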
